A study of Homo sapiens with 6 samples.

Results

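The DNA replication and nucleotide supply genes described here were 52 protein-coding genes of the replication machinery, chosen by gene symbol from a list of replication functions and not by a threshold on measured values. The choice was made with earlier results of these data known. Counts of groups without overlap and count shares were added after the data had been seen. All 52 were found among the 50868 genes of the count table, 1 row for each symbol. The libraries came from Huh7, an established human hepatocellular carcinoma cell line. In 3 libraries (labelled R-98181, replicates 1 to 3) the cells had been transfected with a plasmid that overexpresses the circular RNA hsa_circ_0098181, and in 3 libraries (labelled R-NC, replicates 1 to 3) with a control plasmid. Lipofectamine 2000 was used in both groups and total RNA was taken 48 h after transfection. No sorting or selection of transfected cells is stated, so the RNA may include that of untransfected cells. No source used here states whether the replicates were separate cultures, and the p-values measure only the spread between these libraries. The question was which genes differ in RNA level when the circular RNA is overexpressed.

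Chromosomes are copied once per cell cycle in ordered steps. The origin recognition complex (ORC), CDC6 and CDT1 load the ring-shaped MCM2-7 helicase onto DNA in G1 phase (licensing), and CDC45 and the GINS complex then join the ring to form the active helicase. DNA polymerases copy the strands behind it, held on the template by the sliding clamp PCNA, while ribonucleotide reductase and thymidylate synthase supply deoxynucleotides. Many of these genes are known targets of the E2F transcription factors at the G1/S boundary, and their RNA levels are widely used as a sign of proliferation, also in liver tumours.

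Because E2F is the known shared regulator of this module, the promoters were searched for the letters TTTCCCGC, TTTCGCGC, TTTGCCGC and TTTGGCGC on either strand. These 4 words can overlap each other on opposite strands. A RefSeq window (GRCh38.p14, 250 bases before to 50 after a transcription start) was at hand for 44 of the 52 genes. At least 1 of the words stood in the window of 21 of the 44 genes (47.7%). Of all 27305 genes with a window 3.99% held a word, and of the 10107 tested genes matched by symbol 6.4% did. The windows of 8 genes are printed to show the shared letters, 30 bases each, 5′ to 3′ on the strand of the gene, with the matched word (or its reverse complement) in capitals. A gene with several windows was counted once.
MCM2 (chr3:127598402-127598431, + strand): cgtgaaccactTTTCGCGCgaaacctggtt
MCM3 (chr6:52284728-52284757, - strand): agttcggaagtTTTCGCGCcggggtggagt
MCM7 (chr7:100101388-100101417, - strand): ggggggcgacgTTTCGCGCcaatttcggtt
CDC6 (chr17:40287875-40287904, + strand): ggccattcggaTTTGGCGCgagcgcggctg
CDT1 (chr16:88803743-88803772, + strand): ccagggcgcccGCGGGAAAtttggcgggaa
PCNA (chr20:5126663-5126692, - strand): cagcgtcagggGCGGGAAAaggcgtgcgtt
TYMS (chr18:657603-657632, + strand): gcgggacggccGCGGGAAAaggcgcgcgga
E2F1 (chr20:33686387-33686416, - strand): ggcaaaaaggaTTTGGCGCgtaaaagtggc
A word stood in the windows of 7 of 9 helicase genes, 4 of 8 polymerase genes, 4 of 9 licensing genes, 3 of 9 clamp, loader, RPA and lagging strand genes, 1 of 4 nucleotide supply genes, 2 of 3 G1/S regulators and 0 of 2 histone deposition genes. The median log2 fold change with overexpression was 0.0911 for the 21 genes with a word and 0.04 for the 23 without. The ranges overlapped, from -0.15 to 0.32 with a word and from -0.035 to 0.35 without. CCNE1 (0.35), ORC6 (0.30), TK1 (0.27) and POLD1 (0.25) held no word, while E2F1 (0.32) held 2. POLA1, the lowest of the 52 (-0.15), held 1. GINS4, the highest, had no window and stood in neither group. Whether a word goes with the size of the difference was not tested. The CCAAT box, searched in the same way, was found for 59.1% of the 44 genes against 39.7% of all genes and 43.5% of tested genes. A match of letters is a description of the window and not a measured binding site.

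The 6 libraries held 11130902 to 14138262 counts. SOX5, the gene with the smallest p of all, was at 1905 to 2396 CPM (counts scaled to a common library size by TMM) with overexpression and at 31.3 to 41.8 CPM in controls, which separated the groups as labelled. The paper names SOX5 as the host gene of this circular RNA. Whether reads from the plasmid were counted at SOX5 was not tested, so these values need not show a change of the SOX5 gene itself. The circular RNA itself was not analysed here. Control replicate 1 stood apart from the other libraries. Genes encoded by mitochondrial DNA took 9.29% of its counts, against 6.32% to 7.04% elsewhere. Hepatocyte markers were high in every library (AFP 10800 to 13300 CPM), and the summed leukocyte list (438 to 474 CPM in controls, 491 to 532 CPM with overexpression) was almost all LYZ. Fits without single libraries are given below. They do not separate these library differences from others, and the part of each in the results was not tested.

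None of the 52 replication genes passed an adjusted p under 0.05 in the edgeR quasi-likelihood test, adjusted by Benjamini-Hochberg over 15055 genes (all genes, 0.0399% called). DESeq2 called 1 of the 52, GINS4, and 28 of 15055 genes in all. With limma on FPKM 0 of the 52 and 5 of 11746 genes in all were called. At an unadjusted p under 0.05, 6 of the 52 were higher with overexpression (GINS4, CCNE1, POLD1, E2F1, ORC6 and TK1) and 0 were lower, where 2.42% of all genes were higher and 3.08% lower. The median log2 fold change of the 52 was 0.0887, a small shift beside 0.00233 over all genes tested, and 40 of the 52 lay above 0 (all genes, 50.5%). In 11 of the 52 (21.2%) every overexpression library lay above every control (all genes, 6.4%), and in 0 the reverse held (all genes, 6.5%), although leaving out single libraries gave 0 to 3 in reverse, 3 without control replicate 3 (all genes, 13.2%). For 51 of the 52 the 95% interval of the gene's own difference excluded a doubling and a halving, and for 48 it lay within 1.5-fold either way. On leaving out single libraries 36 to 45 of the 52 lay above 0, 36 without control replicate 2 and 45 without control replicate 1. Without control replicate 1 the median was 0.0688 and 6 genes were again higher at an unadjusted p under 0.05. That count of 6 became 3 without overexpression replicate 1, 3 without replicate 2 and 2 without replicate 3. Over all genes, in either direction, 828 of 15055 were at that threshold with all libraries and 657 of 15387 without control replicate 1. Without overexpression replicates 1, 2 and 3 they were 505, 672 and 665 of 15334, 15337 and 15354. The median of the 52 was lowest, 0.0589, without control replicate 3. A bulk RNA level cannot tell apart more cells in S phase from more RNA per cell. By flow cytometry the paper found that overexpression changed the cell cycle little in Huh7 and Hep3B cells. It also reports lower proliferation in both lines. How these assays relate to the RNA levels was not tested.

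**Figure D1:**
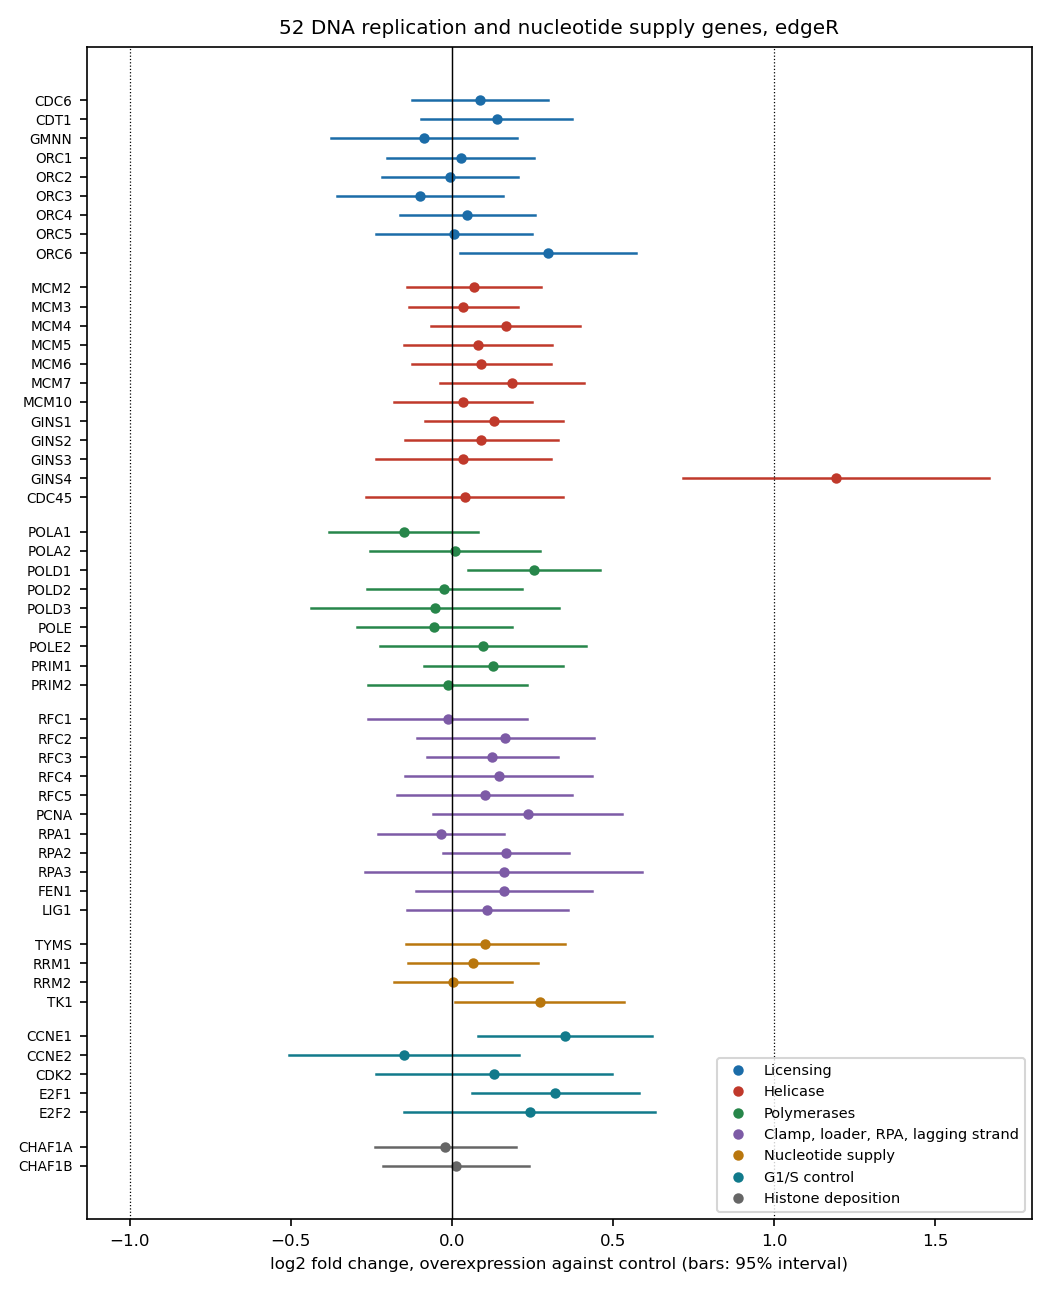
Log2 fold change (overexpression minus control, edgeR) of each of the 52 genes on the horizontal axis, ordered by role; points are estimates and lines are 95% intervals, not adjusted for the number of genes. GINS4 (1.19) stands apart to the right, and the other 51 lie between -0.15 and 0.35.

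Counts of the 52 genes together made up 0.4904%, 0.4801% and 0.48% of the libraries with overexpression and 0.426%, 0.4536% and 0.4502% of the controls. The groups did not overlap, and the lowest share was that of control replicate 1. Without mitochondrial genes in the total, the shares were 0.512% to 0.528% and 0.47% to 0.486%. Per gene, the mean deviation of log2(CPM + 0.5) from the 6-library mean was 0.09, 0.0116 and 0.0538 with overexpression and -0.0652, -0.033 and -0.0572 in controls. Overexpression replicate 2 lay nearest to the controls. The replication genes had a median within-group SD of 0.11 (log2) against 0.147 over 9600 genes between the lowest and highest member in level. Those genes were not matched to the members in level within that range. Within-group SDs were not compared with other lists. By another measure, the SE of the log2 fold change, the 52 were like G2 and mitosis genes. Their median SE was 0.105, against 0.103 for 30 G2 and mitosis genes and 0.119 for 46 other replication genes. Over the 9828 tested genes with a mean count of at least the lowest member's it was 0.124.

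**Figure D2:**
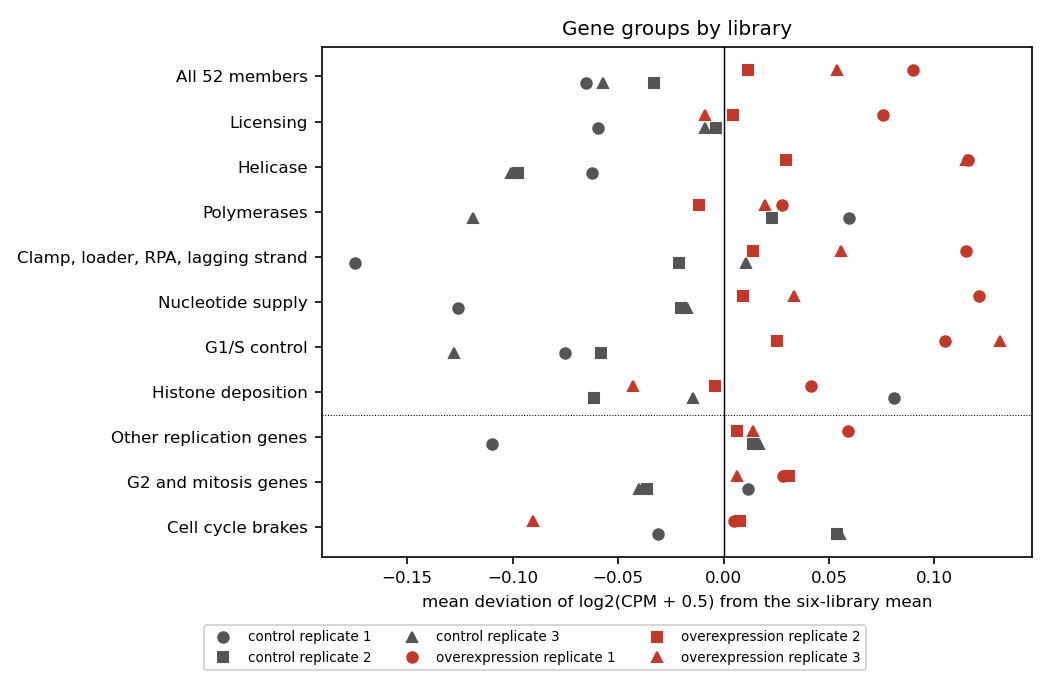
Mean deviation of log2(CPM + 0.5) from the mean of the 6 libraries (horizontal axis) for the 52 genes, for each role group and for 3 other lists, 1 marker per library. For all 52 genes, the helicase, the clamp and lagging strand, the nucleotide supply and the G1/S groups the 3 overexpression libraries lie to the right of the 3 controls, while the licensing, polymerase and histone deposition groups overlap.

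Values of single genes follow in CPM, in the order of replicates 1 to 3. For each of them an exact two-sided permutation test of 3 against 3 could not give a p below 0.1, so tests rest on the edgeR fit across all genes.

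The helicase genes lay above 0 in 12 of 12 cases, with a median log2 fold change of 0.0861, and 11 of them ran from 0.034 to 0.19. GINS4 (ENSG00000147536, chr8:41529206-41545046), a subunit of the 4-part GINS complex, was at 47.3, 28.4 and 51.0 CPM with overexpression and at 18.3, 17.9 and 19.2 CPM in controls. All 3 overexpression libraries lay above the controls, and replicate 2 was the lowest of them. The log2 fold change was 1.19 (SE 0.208, 95% interval 0.72 to 1.67), a 2.28-fold difference with an edgeR adjusted p = 0.403. The deposited counts behind it were 668, 398 and 631 against 198, 210 and 234. Over the alternative fits that used all 6 libraries the adjusted p ranged from 0.000101 (DESeq2) to 0.689 (limma on log2(FPKM + 0.1)). Leaving out overexpression replicate 2 gave 1.41 with an adjusted p of 0.00864 in edgeR, and with all libraries but no filter on low counts the adjusted p was 0.0354. The call thus turned on the tool, the filter and this library.

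The partners of GINS4 in the complex differed less between groups. GINS2 was at 33.4, 32.9 and 30.7 CPM with overexpression and at 31.3, 31.8 and 28.1 CPM in controls (log2 fold change 0.091, SE 0.104). GINS1 and GINS3 had log2 fold changes of 0.13 and 0.034, and the highest upper bound of the 3 partners' 95% intervals was 0.34, below the lower bound for GINS4. The neighbours of GINS4 on chromosome 8 differed among themselves. GOLGA7 had a log2 fold change of -0.14 and GPAT4 of 0.08, and NKX6-3, a homeobox gene at 4.84 ± 1.14 CPM in controls (SD, n = 3), had 0.60 (edgeR adjusted p = 0.797). An antisense gene covers 21.2% of the exonic bases of GINS4 and holds 0 counts in the table, and a further antisense gene over 2.39% holds 8.

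**Figure D3:**
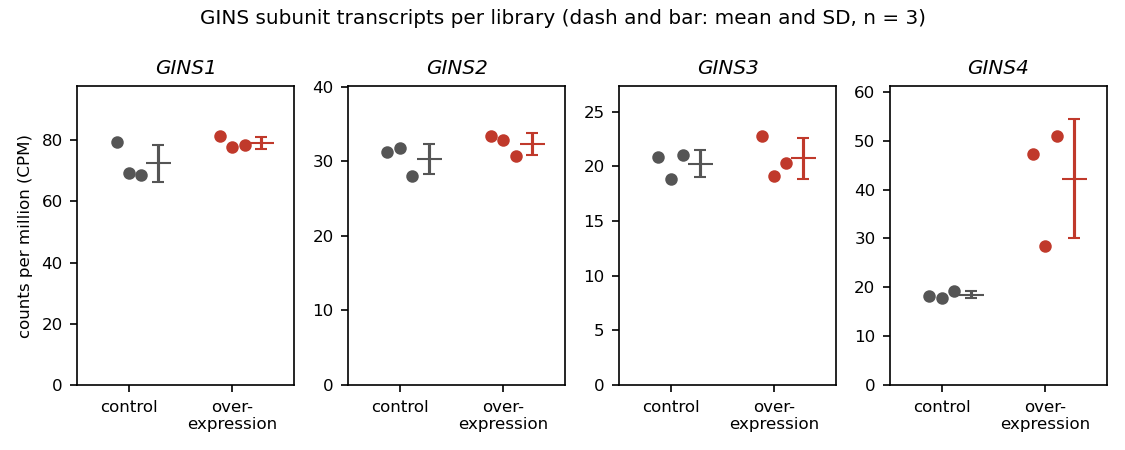
CPM of GINS1, GINS2, GINS3 and GINS4 in each library (points), with the group mean and SD (dash and bar). GINS4 lies at 17.9 to 19.2 CPM in controls and at 28.4 to 51.0 CPM with overexpression, and the points of the other 3 genes overlap between groups.

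The MCM ring genes were abundant and differed little between groups, with 95% intervals that all lay within 0.41 of 0 on the log2 scale. MCM2 was at 249, 259 and 232 CPM with overexpression and at 216, 240 and 249 CPM in controls (log2 fold change 0.07, SE 0.0908). MCM3 was at 304, 304 and 305 CPM with overexpression and at 291, 298 and 302 CPM in controls (log2 fold change 0.035, SE 0.0743), a difference with the smallest SE of the 52 genes. Its groups did not overlap although they differed by so little. MCM5 was at 116, 127 and 118 CPM with overexpression and at 126, 111 and 104 CPM in controls (log2 fold change 0.081, SE 0.10). MCM7, whose intron also hosts a microRNA cluster, was at 493, 536 and 473 CPM with overexpression and at 394, 461 and 464 CPM in controls (log2 fold change 0.19, SE 0.0976). Every overexpression library of MCM7 lay above the controls, with the lowest control in replicate 1. MCM4 and MCM6 had log2 fold changes of 0.17 and 0.091. MCM10, which helps to fire the assembled helicase, was at 52.1, 56.9 and 56.7 CPM with overexpression and at 56.9, 51.2 and 53.7 CPM in controls (log2 fold change 0.034, SE 0.0936). CDC45, the partner of GINS and MCM2-7 in the active helicase, was at 36.6, 27.6 and 34.7 CPM with overexpression and at 34.0, 29.4 and 32.8 CPM in controls (log2 fold change 0.04, SE 0.134). Both overlapped between groups.

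Licensing genes had a median log2 fold change of 0.0268, with 6 above and 3 below 0. ORC6, the smallest subunit of the origin recognition complex, was at 47.6, 48.9 and 48.4 CPM with overexpression and at 33.7, 44.7 and 39.3 CPM in controls (log2 fold change 0.30, SE 0.119, edgeR adjusted p = 0.797). The 3 overexpression libraries were alike and lay above the controls, of which replicate 1 was the lowest. ORC1, the subunit that rises and falls with the cell cycle, was at 56.9, 49.9 and 52.4 CPM with overexpression and at 55.4, 48.6 and 52.3 CPM in controls (log2 fold change 0.027, SE 0.10). ORC3 was at 91.4, 88.8 and 85.1 CPM with overexpression and at 110, 84.8 and 89.9 CPM in controls (log2 fold change -0.099, SE 0.112), the third lowest log2 fold change of the 52 genes. Its highest library was control replicate 1, and the others lay together. ORC2, ORC4 and ORC5 had log2 fold changes from -0.0059 to 0.047. CDC6, which loads MCM2-7 together with CDT1, was at 149, 142 and 143 CPM with overexpression and at 123, 138 and 147 CPM in controls (log2 fold change 0.086, SE 0.0926). CDT1 was at 65.5, 65.1 and 58.4 CPM with overexpression and at 54.5, 54.3 and 63.0 CPM in controls (log2 fold change 0.14, SE 0.102), and its log2 fold change was 0.0091 with trends in length and GC content removed. GMNN encodes geminin, the inhibitor of CDT1 that blocks a new round of licensing, and was at 37.7, 31.6 and 31.3 CPM with overexpression and at 31.8, 39.6 and 35.4 CPM in controls (log2 fold change -0.087, SE 0.126). The groups overlapped for all 3 of these genes.

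Polymerase genes had a median log2 fold change of -0.0139, with 4 above and 5 below 0. POLD1, the catalytic subunit of polymerase delta that copies the lagging strand, was at 54.7, 54.7 and 55.3 CPM with overexpression and at 45.9, 48.4 and 43.9 CPM in controls (log2 fold change 0.25, SE 0.0895, edgeR adjusted p = 0.797). The overexpression libraries were almost equal and all above the controls. With trends in transcript length and GC content removed, the log2 fold change was 0.15. Of the other delta subunits, POLD2 and POLD3 had log2 fold changes of -0.024 and -0.053. POLD4, which is not among the 52 genes, had 0.040 (SE 0.182). POLA1, the catalytic subunit of polymerase alpha that starts each new strand, was at 42.2, 40.5 and 44.1 CPM with overexpression and at 45.5, 51.1 and 44.1 CPM in controls (log2 fold change -0.15, SE 0.101), the lowest log2 fold change of the 52 genes. PRIM1, the primase that makes its RNA primers, was at 53.9, 48.0 and 50.1 CPM with overexpression and at 47.3, 44.7 and 47.0 CPM in controls (log2 fold change 0.13, SE 0.0940). These 2 subunits of 1 complex thus lay on opposite sides of 0, PRIM1 without overlap between groups. POLE, the catalytic subunit of the leading strand polymerase, was at 96.9, 118 and 112 CPM with overexpression and at 122, 111 and 107 CPM in controls (log2 fold change -0.056, SE 0.105). POLE2, an accessory subunit of it, was at 25.3, 21.1 and 24.1 CPM with overexpression and at 24.6, 22.8 and 18.6 CPM in controls (log2 fold change 0.096, SE 0.139). POLA2 and PRIM2 had log2 fold changes of 0.0096 and -0.014.

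The clamp, the clamp loader, the single-strand binding protein RPA and the lagging strand enzymes had a median log2 fold change of 0.145, with 9 above and 2 below 0. In edgeR 0 of the 11 were at an unadjusted p under 0.05 (all genes, 2.42% higher and 3.08% lower). PCNA, the sliding clamp, was at 310, 232 and 245 CPM with overexpression and at 202, 225 and 242 CPM in controls (log2 fold change 0.23, SE 0.128). Its highest value was that of overexpression replicate 1, the other libraries with overexpression lay within or next to the range of the controls, and without that replicate the log2 fold change was 0.097. RFC3, a subunit of the loader that opens the clamp, was at 81.1, 76.2 and 87.2 CPM with overexpression and at 75.7, 74.5 and 73.9 CPM in controls (log2 fold change 0.13, SE 0.0889). RPA2, the middle subunit of RPA, was at 80.0, 76.4 and 75.1 CPM with overexpression and at 65.4, 70.7 and 70.0 CPM in controls (log2 fold change 0.17, SE 0.0858). Neither overlapped between groups. FEN1, the nuclease that trims Okazaki fragment flaps, was at 285, 255 and 268 CPM with overexpression and at 202, 248 and 272 CPM in controls (log2 fold change 0.16, SE 0.119), which fell to 0.051 when control replicate 1 was left out. LIG1, the ligase that seals the fragments, was at 37.3, 44.5 and 37.0 CPM with overexpression and at 36.2, 37.5 and 36.5 CPM in controls (log2 fold change 0.11, SE 0.109). In this group control replicate 1 was far below the other libraries, with a mean deviation of -0.175 on the log2 scale against -0.021 and 0.0107 in the other controls. RFC1, RFC2, RFC4, RFC5, RPA1 and RPA3 had log2 fold changes from -0.035 to 0.17.

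Nucleotide supply genes were 4 of 4 above 0, with a median log2 fold change of 0.0841. TK1, the salvage kinase of thymidine, was at 56.3, 52.2 and 60.7 CPM with overexpression and at 41.2, 47.5 and 51.4 CPM in controls (log2 fold change 0.27, SE 0.115, edgeR adjusted p = 0.797). The groups did not overlap, and with length and GC trends removed the log2 fold change was 0.14. Control replicate 1 was the lowest library of TK1, and without it the log2 fold change was 0.191. TYMS, thymidylate synthase and the target of fluorouracil, was at 198, 185 and 157 CPM with overexpression and at 156, 173 and 174 CPM in controls (log2 fold change 0.10, SE 0.108). Its exons share 39.1% of their bases with ENOSF1 on the opposite strand, and whether the counting used strand is not given in the sources used here. RRM1, the large subunit of ribonucleotide reductase, was at 123, 111 and 111 CPM with overexpression and at 110, 115 and 106 CPM in controls (log2 fold change 0.065, SE 0.0885). RRM2, the small subunit that limits the enzyme in S phase, was at 141, 132 and 143 CPM with overexpression and at 138, 138 and 140 CPM in controls (log2 fold change 0.0018, SE 0.080), the value nearest to 0 of the 52 genes. TYMS, RRM1 and RRM2 overlapped between groups.

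The G1/S regulators had the highest group median, a log2 fold change of 0.241, with 4 above and 1 below 0. With 5 genes this median was the value of E2F2. The median SE of the group, 0.156, was also above that of the 52 genes (0.105). CCNE1 encodes cyclin E1, the partner of CDK2 that drives entry into S phase, and was at 21.4, 19.2 and 23.3 CPM with overexpression and at 16.4, 17.2 and 16.4 CPM in controls (log2 fold change 0.35, SE 0.118, edgeR adjusted p = 0.797). E2F1, the transcription factor of the module, was at 71.6, 75.0 and 66.7 CPM with overexpression and at 48.9, 61.4 and 60.4 CPM in controls (log2 fold change 0.32, SE 0.114, edgeR adjusted p = 0.797). All overexpression libraries of both genes lay above the controls. With length and GC trends removed, the log2 fold change of E2F1 was 0.21. Control replicate 1 was the lowest library of E2F1, and without it the log2 fold change was 0.225. CCNE2, cyclin E2, was at 10.9, 10.8 and 11.1 CPM with overexpression and at 13.1, 13.5 and 9.87 CPM in controls (log2 fold change -0.15, SE 0.156). Its exons overlap INTS8 on the opposite strand over 37.0% of their bases, and the gene held 863 counts in all. CDK2 was at 53.7, 35.4 and 42.8 CPM with overexpression and at 44.2, 40.2 and 36.2 CPM in controls (log2 fold change 0.13, SE 0.160). E2F2 was at 9.41, 11.6 and 12.8 CPM with overexpression and at 9.69, 8.35 and 10.5 CPM in controls (log2 fold change 0.24, SE 0.170). The groups of CCNE2, CDK2 and E2F2 overlapped.

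The histone deposition genes had 95% intervals within 0.24 of 0 on the log2 scale. CHAF1A, the large subunit of the CAF-1 chaperone that places histones on new DNA, was at 88.5, 83.7 and 79.8 CPM with overexpression and at 90.9, 78.1 and 86.8 CPM in controls (log2 fold change -0.022, SE 0.0955). CHAF1B, the middle subunit, was at 26.6, 26.3 and 26.2 CPM with overexpression and at 27.3, 26.1 and 25.0 CPM in controls (log2 fold change 0.013, SE 0.0993).

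Apart from ribonucleotide reductase, the highest and lowest subunits of a complex differed in RNA level in controls by 2.43-fold or more per kb, and by 2.25-fold or more by the deposited FPKM. On the scale of CPM per kb of merged exons (GENCODE 29), the levels in controls ran from 152 ± 13.9 for PCNA, followed by MCM7 and then FEN1 at 97.2 ± 14.5 (SD, n = 3), down to 2.76 ± 0.449 for CCNE2 and 1.74 ± 0.202 for E2F2. MCM7 and FEN1 did not differ beyond their SDs. Within MCM2-7, whose subunits stand 1 to 1 in the ring, the level of MCM7 was 6.45 times that of MCM5 in controls and 6.95 times with overexpression. The merged exons used as length were 4386 bases for MCM7 and 7338 for MCM5, so this ratio depends on the measure of length. By the deposited FPKM in controls MCM3 was highest (54.6), 4.48 times MCM5 (12.2), and MCM7 was at 44.4. In GINS the highest level, GINS1, was 5.28 times the lowest, GINS4, and GINS4 with overexpression (7.71 ± 2.21) was above GINS3 (4.06 ± 0.369). RRM1 and RRM2 were at 26.4 ± 1.15 and 26.0 ± 0.181, a ratio of 1.02. Exons are also shared with other genes: MCM2 shares 22.7% of its exonic bases with an antisense gene, POLA2 35.1% and RRM2 20.2% with a gene on the same strand.

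**Figure D4:**
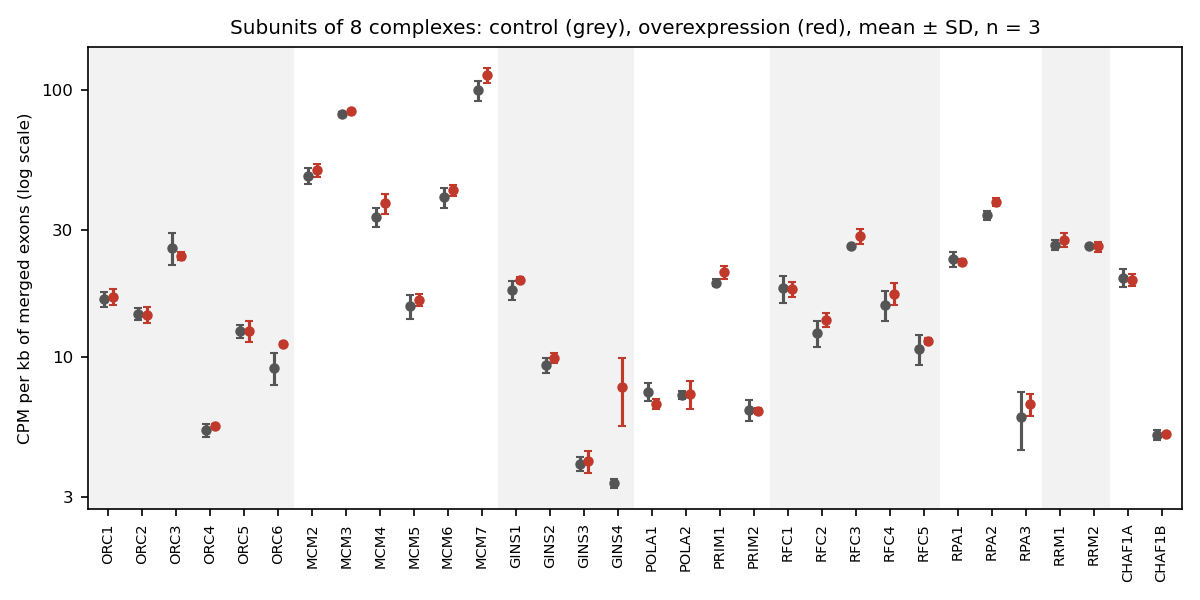
Level of each subunit in CPM per kb of merged exons (logarithmic axis) within its complex, as the mean of 3 libraries per group with the SD as error bar. GINS4 is the subunit whose group means stand apart most, 3.37 in controls and 7.71 with overexpression.

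Of a further list of 46 genes that act in or beside the replication machinery, 27 lay above and 19 below 0, with a median log2 fold change of 0.0488. In edgeR 3 of the 46 were higher at an unadjusted p under 0.05 and 0 lower (all genes, 2.42% and 3.08%). These were RECQL4, a helicase of origin firing (log2 fold change 0.34), KIAA0101, the PCNA-associated factor (0.39), and TFDP1, the DNA-binding partner of E2F proteins (0.29). In controls of this list, replicate 1 was again the lowest, with a mean deviation of -0.11. Of 30 G2 and mitosis genes 16 lay above and 14 below 0 (median 0.0057), and CDK1 (0.20) and PTTG1 (0.26) were higher at an unadjusted p under 0.05, where 2.42% of all genes were. Of 16 cell cycle brakes 6 lay above and 10 below 0 (median -0.062). E2F4, the repressor E2F of resting cells, was among those lower at an unadjusted p under 0.05 (all genes, 3.08%). It was at 47.4, 51.3 and 43.1 CPM with overexpression and at 51.96, 58.9 and 61.7 CPM in controls (log2 fold change -0.28, SE 0.111, edgeR adjusted p = 0.797). The groups did not overlap, and overexpression replicate 2 was the highest of its group.

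The study examined the microRNA miR-18a-3p beside the circular RNA, and its mature sequence (RefSeq) is printed because the members were searched for its sites.
miR-18a-3p: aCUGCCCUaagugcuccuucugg
The capitals mark the seed, bases 2 to 8, whose reverse complement on a target is AGGGCAG. At least 1 such site stood in the annotated 3′ UTR of 5 of the 52 genes (9.62%), against 16.2% of 12580 tested genes. The 5 genes were ORC2, POLA2, TK1, E2F1 and E2F2, with 2 sites each in E2F1 and E2F2. Their log2 fold changes were -0.0059, 0.0096, 0.27, 0.32 and 0.24. Over all tested genes the median was -0.0215 with a site and 0.00613 without.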

How the data were processed

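Total RNA of 6 Huh7 libraries, 3 per group, was sequenced by the authors, and a table of genes was deposited with whole-number read counts per gene and library and with FPKM values (fragment counts scaled for transcript length and library size). TopHat2 2.0.9 and the build hg38 are named in the submitters' processing notes; the program that counted, its strand setting and the annotation release are not given in the sources used here. Reads that fit several genes may have been split or dropped in counting.

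From the deposited counts, genes were filtered with filterByExpr (minimum count 10) and scaled by TMM, and the groups were compared with the quasi-likelihood test of edgeR 4.0.16 in R 4.3.3, two-sided, with Benjamini-Hochberg adjustment over 15055 genes at a threshold of 0.05. The SE was the size of the log2 fold change divided by the square root of F. The common biological coefficient of variation was 16.1%. Single genes are shown as CPM, and log2(CPM + 0.5) was used for deviations. Levels per length used merged exons of GENCODE 29, in which 98.51% of gene IDs were found, with the deposited FPKM as the alternative. Further alternatives were RLE and upper-quartile scaling, DESeq2 1.42.0, other filters (no filter beyond 1 count, a mean of at least 50 counts), limma 3.58.1 on log2(FPKM + 1) and log2(FPKM + 0.1), the replicate number as a block, removal of length and GC trends, and each library left out.

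Members and lists were chosen with earlier results of these data known. Genes given in every library were a set of 33 members listed by role, any member at an unadjusted p under 0.05, and the 3 highest and 3 lowest log2 fold changes. The promoter, microRNA site, GINS4 neighbour, count share and non-overlap analyses were added after the data had been seen. Single-gene results for some genes of the brake and marker lists are not reported here.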

Additional observations from a re-analysis of the deposited data

How the results depend on the processing

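The median log2 fold change of the 52 genes stayed above 0 under every alternative run (0.0672 to 0.114), and leaving out each library gave 0.0589 to 0.0973. The median over all genes moved too. It was 0.031 in limma on log2(FPKM + 0.1), the run that gave 0.114. With length and GC trends removed, the run that gave 0.0672, it was 0.0026. At an adjusted p under 0.05 the members called were 1 with DESeq2, 1 with no filter beyond 1 count and 0 to 1 on leaving out each library, GINS4 each time. The genes called in all were 28 with DESeq2, 9 of 27086 with no filter beyond 1 count and 6 in the edgeR fit. Without single libraries they were 4 to 16, with 16 without overexpression replicate 2 and 10 without replicate 3. The members higher at an unadjusted p under 0.05 were 2 to 6 without single libraries. Over all genes, in either direction, 505 to 1131 were at that threshold in those fits. The members with every overexpression library above every control were 13 to 16 without single libraries (10.2% to 13.2% of all genes). Replicate numbers did not pair the libraries (r of deviations -0.036, -0.023 and -0.031). With the replicate number as a block the members called were 0 and the genes called in all 4. At an unadjusted p under 0.05 in that fit 4 members were higher, and 661 of all genes were at that threshold in either direction. Directions near 0 turned for RRM2 with RLE (-0.000455) and DESeq2 (-0.000547), for CHAF1A with limma (0.00384 and 0.00415), and for CDC45 (-0.00397), ORC1 (-0.00786) and POLE (0.0648) with length and GC trends removed. That setting also moved CDT1, POLD1, TK1, E2F1, MCM2 (0.0375), MCM3 (0.0121), MCM10 (0.0541), RPA2 (0.108), TYMS (0.0542), RRM2 (0.0119) and CHAF1A (-0.0614) by over 1.5 times with no change of sign. Without single libraries the log2 fold changes ran from -0.0425 to 0.153 for CDC45, -0.0265 to 0.0742 for ORC1, -0.121 to 0.0222 for POLE, -0.0214 to 0.0351 for RRM2, -0.0398 to 0.264 for CDK2, -0.0814 to 0.0284 for CHAF1A, -0.173 to 0.0193 for ORC3, -0.00303 to 0.0759 for MCM10, -0.0122 to 0.185 for POLE2 and -0.0171 to 0.0472 for CHAF1B. The ratio of the highest to the lowest subunit by FPKM in place of CPM per kb was 6.89 for ORC, 4.48 for MCM2-7, 9.81 for GINS, 2.25 for polymerase alpha-primase, 4.38 for RFC, 1.08 for ribonucleotide reductase and 2.78 for CAF-1, against 4.83, 6.45, 5.28, 3.0, 2.43, 1.02 and 3.87. The cause of these changes was not tested. With 3 libraries a group, the median SE of the 52 log2 fold changes was 0.105.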
